A study of Mus musculus with 19 samples.

Results

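The genes of the main striatal neuropeptides and of the opioid receptors, 10 in all, are described here in the brain of spinocerebellar ataxia type 17 (SCA17) knock-in mice. They were chosen by gene name and comprise 6 peptide precursors (Penk, Pdyn, Tac1, Npy, Sst and Pnoc) and 4 receptors (Oprk1, Oprm1, Oprd1 and Oprl1). All 10 were among the 41128 genes of the count table, and all 10 were among the 16841 genes with enough counts to be tested. SCA17 is a polyglutamine disease of the general transcription factor TBP, which binds the TATA box. Bulk RNA sequencing was performed on the striatum (STR), the prefrontal cortex (PFC) and the cerebellum (CB) of germline SCA17 knock-in (KI) mice, in which EIIa-Cre has recombined a floxed mutant Tbp allele (Tbp-105Q) in the germline, and of age-matched wild-type (WT) mice. All mice were on the C57BL/6 strain and were 3 months old. The cerebellum gave 4 KI and 3 WT libraries, and striatum and prefrontal cortex gave 3 of each genotype. The study's methods describe the KI line as bred from heterozygous floxed mice, with the recombined progeny then crossed to wild-type mice, and no other allele or treatment was given for either genotype.

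The 19 libraries held 10639110 to 17431284 counts each, with a median of 15082703. Tbp ranged from 32.0 to 62.0 CPM (counts scaled to library size) and its count does not check the genotype, because the repeat expansion leaves the counted gene in place. The dissections were not uniform. Choroid plexus markers were at 2010 CPM in sum in 1 WT and 5038 CPM in 1 KI cerebellar library against 21.6 to 45.0 CPM in the other 5. In the striatum they were at 1580 to 9123 CPM in WT and 4319 to 7319 CPM in KI. Olfactory bulb markers were at 506 CPM in 1 WT prefrontal library against 8.23 to 38.2 CPM in the other 5. Hypothalamic and preoptic markers were below 3 CPM in sum in every library. Markers of the labelled tissue were high in each region, with 9 pan-striatal markers summing to 6370 CPM or more in every striatal library.

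Neuropeptides are made as long precursors that are cut at pairs of basic residues inside secretory vesicles. Projection neurons of the indirect pathway of the striatum release enkephalins, from Penk, and those of the direct pathway release dynorphins, from Pdyn, and substance P, from Tac1. Npy and Sst mark a class of GABAergic interneurons in striatum and cortex. Opioid peptides act on the delta (Oprd1), mu (Oprm1) and kappa (Oprk1) receptors, and nociceptin, from Pnoc, acts on Oprl1. All of these receptors couple to inhibitory G proteins.

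The opioid precursors differ in how many active peptides 1 transcript encodes, which is why their coding sequences are shown. Penk lies on chr4:4133531-4138819 and Pdyn on chr2:129686565-129699844, both on the minus strand of GRCm38. The Penk-201 transcript of the GENCODE M21 annotation encodes 6 copies of the Met-enkephalin core and 1 of the Leu-enkephalin core. The Pdyn-201 transcript holds 3 copies of the Leu-enkephalin core, at the start of its dynorphin and neoendorphin peptides. Each of these 10 cores follows codons for a pair of basic residues. In the sequences, written 5′ to 3′ along the transcript, capitals mark the codons of the 5-residue core and lower case the 6 bases on each side.
Penk, Met-enkephalin core, copy 1: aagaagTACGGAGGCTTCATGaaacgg
Penk, Met-enkephalin core, copy 4: aagaggTATGGGGGCTTCATGagaagc
Penk, Leu-enkephalin core: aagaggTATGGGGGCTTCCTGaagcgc
Pdyn, core 1: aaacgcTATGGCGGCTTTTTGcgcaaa
Pdyn, core 2: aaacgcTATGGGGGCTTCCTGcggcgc
Pdyn, core 3: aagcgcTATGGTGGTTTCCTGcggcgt
Pnoc, start of nociceptin: aaaaggTTTGGGGGCTTCaccggg
Tac1, end of substance P: cagcagTTCTTTGGATTAATGggcaag
Tac1, end of neurokinin A: gattccTTTGTTGGACTAATGggcaaa
The Pnoc capitals mark the first codons of nociceptin, from the Pnoc-201 transcript on chromosome 14. The Tac1 capitals mark the last codons of substance P and of neurokinin A, both present in the Tac1-205 transcript on chromosome 6. These peptides are read from the same reads in a gene count, so a change in Penk or Tac1 counts cannot be assigned to 1 peptide.

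Penk was by far the most abundant of the 10 genes in WT striatum. Levels between genes are given as reads scaled to library size and to union exon length (RPKM). In WT striatum Penk was at 2242 ± 277 RPKM (SD, n = 3), and Npy came next at 195 ± 14.5 RPKM. Sst at 193 ± 56.5 RPKM could not be separated from Npy, since the ranges of the 3 libraries overlapped. Tac1 at 143 ± 8.33 RPKM and Pdyn at 100.03 ± 20.9 RPKM followed, each below its neighbour without overlap. The receptors were far lower. Oprl1 led with 10.0 ± 2.95 RPKM, Oprk1 at 3.73 ± 1.19 and Oprd1 at 3.18 ± 1.16 RPKM overlapped, and Oprm1 was lowest at 0.242 ± 0.0656 RPKM. Pnoc, the nociceptin precursor, was at only 0.738 ± 0.701 RPKM in WT striatum and overlapped with Oprm1. The order differed in the other regions. In WT prefrontal cortex Npy (326 ± 9.10 RPKM) and Sst (257 ± 39.6 RPKM) led, without overlap, followed by Penk at 108 ± 84.2 RPKM. In WT cerebellum Penk led at 103 ± 9.95 RPKM, followed by Npy at 22.8 ± 8.93 and Oprl1 at 4.12 ± 0.178 RPKM. Tac1 was at 0.184 ± 0.0463 RPKM there, from 7 to 12 counts a library.

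**Figure D1:**
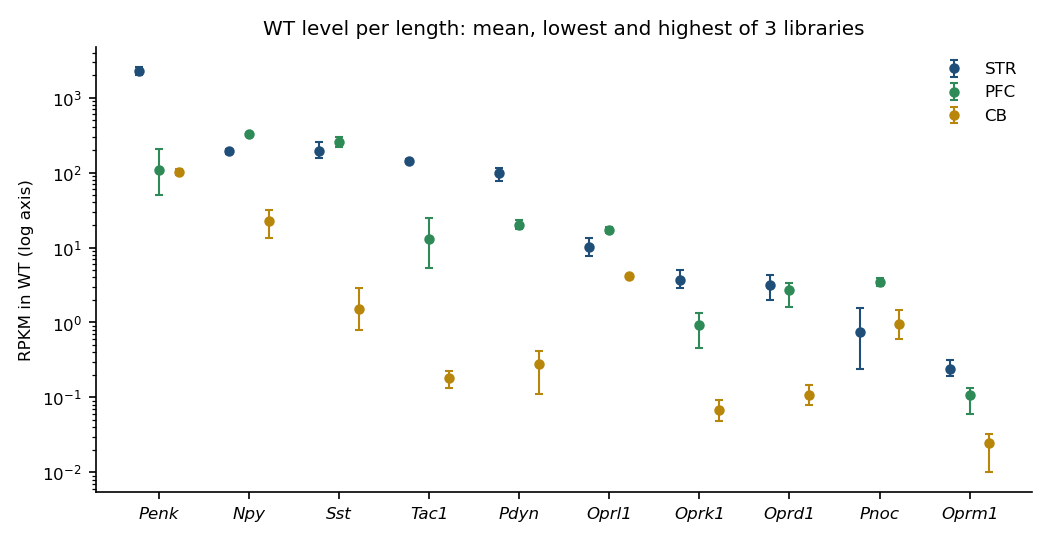
WT level of the 10 genes in RPKM on a log axis, in order of their striatal level, for STR, PFC and CB. Points are means and bars run from the lowest to the highest of 3 libraries. Penk in the striatum (2242 RPKM) stands above all others, and Npy, Sst, Oprl1 and Pnoc have their highest mean in PFC.

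Comparison of WT striatum with WT cerebellum asked which of these genes mark the forebrain region. By the edgeR quasi-likelihood test with Benjamini-Hochberg adjustment over all 16841 genes, 9 of 10 were higher in the striatum, where 28.7% of all tested genes were called higher and 56.5% were called in either direction. The peptide precursors of the direct pathway differed most. Tac1 was at 461, 485 and 517 CPM in the 3 WT striatal libraries and at 0.771, 0.459 and 0.647 CPM in the WT cerebellar ones, a 770-fold difference (log2 fold change 9.59, SE 0.984, adjusted p = 3.19e-07). Pdyn was 361-fold higher (log2 8.50, adjusted p = 3.75e-10), Sst 122-fold and Penk 21.8-fold. Oprk1 was the receptor with the widest gap, 53.9-fold (log2 5.75, adjusted p = 2.88e-07), followed by Oprd1 at 28.7-fold, Oprm1 at 9.12-fold and Oprl1 at 2.43-fold. Pnoc was the exception, at 0.520, 0.935 and 3.32 CPM in WT striatum and 1.31, 1.70 and 3.15 CPM in WT cerebellum (log2 -0.38, 95% interval -1.85 to 1.08, adjusted p = 0.661).

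The comparison of WT striatum with WT prefrontal cortex called 7 of 10 members (beside 30.5% of all tested genes), 4 higher and 3 lower in the striatum. Penk was at 3268, 3566 and 4156 CPM in WT striatum and at 83.0, 110 and 334 CPM in WT prefrontal cortex. No prefrontal library came near a striatal one, and the fold difference was 20.8 (log2 4.38, SE 0.547, adjusted p = 1.29e-05). Tac1 was 11.1-fold (log2 3.47, adjusted p = 0.000608), Pdyn 4.94-fold (log2 2.30, adjusted p = 5.12e-05) and Oprk1 4.07-fold higher (log2 2.02, adjusted p = 0.00246). Npy was lower in the striatum, with 101 to 116 CPM against 179 to 189 CPM (log2 -0.74, SE 0.225, adjusted p = 0.0185). Pnoc (log2 -2.26, adjusted p = 0.0174) and Oprl1 (log2 -0.76, adjusted p = 0.0113), precursor and receptor of the nociceptin system, were lower as well. Without the second WT striatal library 4 members were called, and Npy, Pnoc and Oprl1 had adjusted p of 0.0796, 0.0821 and 0.0740. Without the first, 5 were called, with Pnoc at 0.0784 and Oprl1 at 0.0536. Sst at 112 to 186 CPM in the striatum and 159 to 215 CPM in prefrontal cortex was not separated (log2 -0.41, 95% interval -1.39 to 0.56), and neither was Oprd1 (log2 0.21, interval -0.60 to 1.02).

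The call for Oprm1 differed between settings. The main test gave a 2.25-fold higher level in the striatum (log2 1.17, SE 0.458, edgeR adjusted p = 0.0630), on 21 to 33 counts a library in WT striatum and 7 to 16 in WT prefrontal cortex. With same-numbered STR and PFC libraries paired as a replicate block in edgeR, the value was 1.19 (SE 0.337) and the adjusted p 0.0284, beside 30.9% of all genes called in that fit. Without 4 libraries that held markers of another tissue, and with no pairing, it was 1.36 with an edgeR adjusted p of 0.0483. WT prefrontal cortex against WT cerebellum gave 9 of 10 members higher (26.9% of all genes higher, 52.0% in either direction), with Sst 163-fold, Pdyn 73.1-fold and Npy 14.2-fold. Penk was the member not called, at 150 to 181 CPM in WT cerebellum and 83.0 to 334 CPM in WT prefrontal cortex (log2 0.07, 95% interval -0.95 to 1.08). Pnoc was 3.67-fold higher (adjusted p = 0.0242), but its adjusted p was 0.0539 to 0.0905 when the second WT cerebellar, the third WT cerebellar or the first WT prefrontal library was left out.

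**Figure D2:**
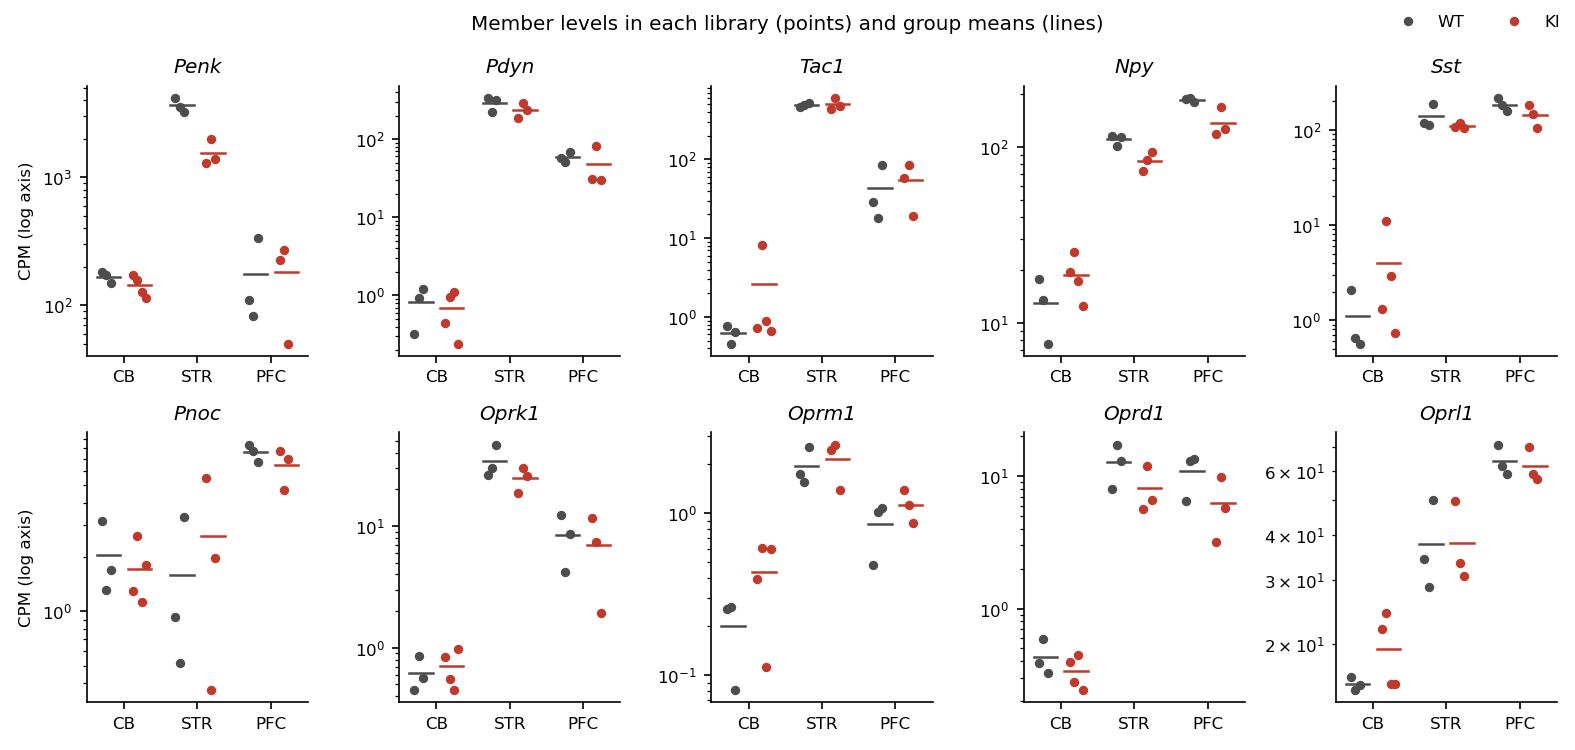
Each panel shows 1 gene in CPM on a log axis, for CB, STR and PFC. Points are libraries (WT grey, KI red) and lines are group means. Penk in STR and Npy in STR and PFC are lower in every KI library than in every WT library, and 1 KI cerebellar library stands far above the others for Tac1 (8.15 CPM) and Sst (11.0 CPM).

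The comparison of KI with WT within each region asked whether the peptide system is altered by mutant TBP at 3 months. No member passed the adjusted threshold in any region by edgeR. In the striatum 0 of 10 were called, beside 0.582% of all tested genes, and 1 (Penk) had an unadjusted p below 0.05, as did 8.12% of all genes. In the cerebellum 0 of 10 were called, beside 0.831%, with 2 (Npy and Sst) below 0.05 unadjusted and 10.1% of all genes. In prefrontal cortex 0 of 10 were called, beside 0.107%, with none below 0.05 unadjusted and 5.93% of all genes. DESeq2 on the same 6 groups also called 0 members in each region, with 1, 3 and 0 below 0.05 unadjusted in striatum, cerebellum and prefrontal cortex, and it called 1.27, 2.00 and 0.309% of all genes there. The median log2 fold change of the 10 members was -0.31 in the striatum, 0.24 in the cerebellum and -0.23 in prefrontal cortex, where the median of all genes was within 0.01 of 0.

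**Figure D3:**
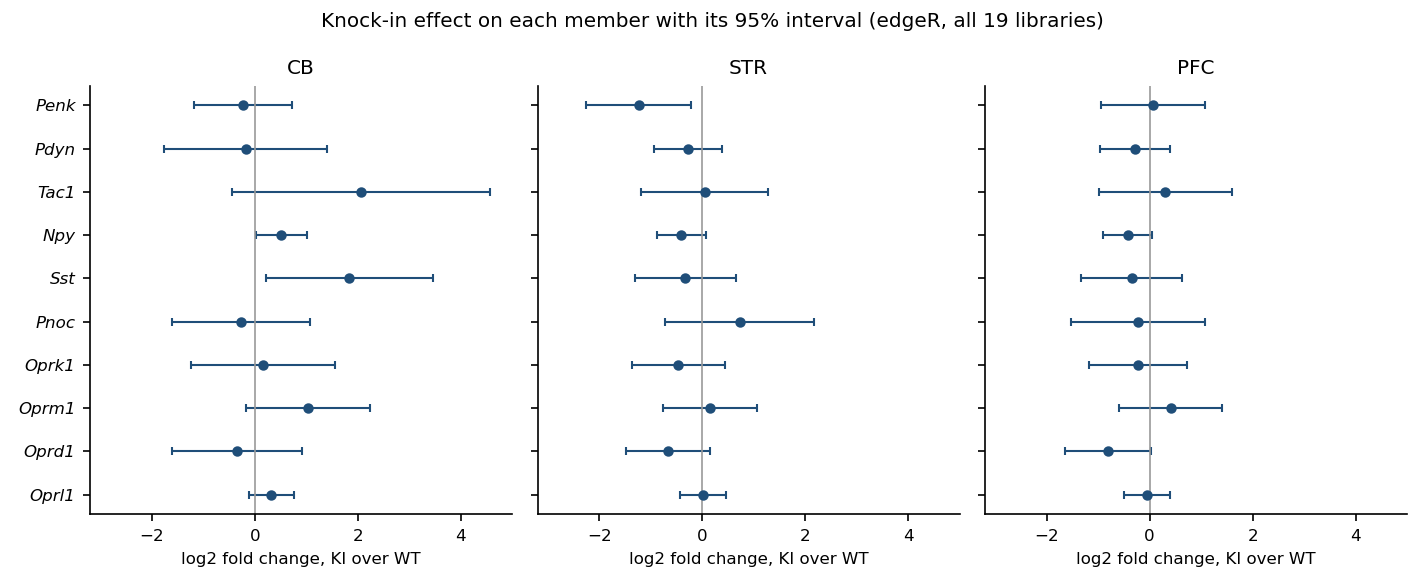
Log2 fold change of KI over WT for the 10 genes in CB, STR and PFC. Points are edgeR estimates from the fit to all 19 libraries and bars are 95% intervals. In STR the interval of Penk (-2.25 to -0.22) lies below 0, and in CB those of Npy and Sst lie above 0, without any adjusted p below the threshold.

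Penk had the largest difference of the 10 in the striatum. It was at 4156, 3566 and 3268 CPM in the 3 WT libraries and at 1287, 1992 and 1388 CPM in the 3 KI libraries, so that the highest KI library was well below the lowest WT library. The KI level was 2.36-fold lower (log2 -1.24, SE 0.482, 95% interval -2.25 to -0.22, edgeR adjusted p = 0.452). Genes whose groups did not overlap in this direction made up 8.46% of all tested. The 2-sided exact permutation test over the 6 striatal libraries gave p = 0.1, the smallest this design allows. The call for Penk differed between settings. The main test shares 1 estimate of the spread over all 6 groups. Relative to its mean, Penk varied most in prefrontal cortex, from 50.2 to 271 CPM among KI and from 83.0 to 334 CPM among WT libraries. With the 6 striatal libraries fitted alone, edgeR gave -1.22 with an SE of 0.186 and an adjusted p of 0.0569. DESeq2 on those 6 libraries, added after the data were seen, gave -1.22 with an adjusted p of 1.30e-09 and was the only setting to call a member, 1 of 10 beside 1.77% of all genes. Leaving out any 1 striatal library from the main test gave log2 fold changes from -1.45 to -1.12, with adjusted p from 0.338 to 0.850. Penk shares 233 exon bases with the antisense gene A830012C17Rik, which had 22 to 41 counts in WT and 8 to 23 in KI striatum, against 19035 to 62237 Penk counts. Without strand, reads of the shared bases cannot be told apart.

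The direct-pathway peptides overlapped between genotypes. Tac1 was at 461, 485 and 517 CPM in WT and at 435, 595 and 480 CPM in KI striatum, and the groups overlapped (log2 0.05, 95% interval -1.19 to 1.28). Pdyn was at 333, 220 and 314 CPM in WT and at 186, 290 and 235 CPM in KI, again with overlap (log2 -0.28, interval -0.94 to 0.38).

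The summed level of general markers of striatal projection neurons was lower in the KI libraries. Summed over 9 pan-striatal markers, the level was 10280 to 12547 CPM in WT and 6370 to 8575 CPM in KI striatum. Of the 9, none passed the adjusted threshold, all had negative log2 fold changes with a median of -0.61, and 8 did not overlap between the groups, beside 8.46% of all genes. Pde10a, a cyclic nucleotide phosphodiesterase of these neurons, was closest (log2 -1.02, SE 0.229, adjusted p = 0.0542), and Adcy5, the adenylyl cyclase on which striatal dopamine and opioid receptors converge, had -0.77 (adjusted p = 0.267). All 5 tested indirect-pathway markers were lower without overlap, with a median of -0.67, Gpr6 at -0.87 and the adenosine receptor Adora2a at -0.86 (adjusted p = 0.619 and 0.739). Of 6 direct-pathway markers 4 had negative log2 fold changes, 3 of them without overlap, with a median of -0.38. In this list 1 marker was called, beside 0.582% of all tested genes, namely Sfxn1 at -0.59 (SE 0.108, adjusted p = 0.0154). Ebf1 at -0.16 overlapped, and Isl1 at 0.16 and Eya1 at 0.39 were positive. These lists were chosen with earlier results of these data known, and the study itself names Pde10a among the genes lower in the KI striatum. The genes of a list also share a cell type and are not independent. The counts are therefore a description and not a test. In bulk tissue, fewer cells of a type and less RNA per cell cannot be told apart. Cortical excitatory markers summed to 46.4 to 270 CPM in WT and 102 to 199 CPM in KI striatum and choroid plexus markers overlapped as given above, and their part in the Penk difference was not tested. Without the WT and the KI library with the most cortical markers, Penk was at -1.19 (adjusted p = 0.791).

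Within each striatal library, Penk was also low relative to these markers. Penk amounted to 37.2, 28.4 and 31.8% of the summed level of the 9 markers in WT and to 20.2, 23.2 and 20.3% in KI libraries. Tac1 amounted to 4.12, 3.87 and 5.03% in WT and to 6.83, 6.94 and 7.01% in KI, so that its order was the opposite. Tac1 itself overlapped between genotypes in CPM, while the marker sum was lower in KI. A gene with an unchanged CPM takes a larger share of a lower sum, so this percentage does not show a rise of Tac1. The ratio of Penk to Tac1, which does not depend on the markers, was 9.02, 7.35 and 6.32 in WT and 2.96, 3.35 and 2.89 in KI. In all 3 measures the groups did not overlap, but the measures share values and are not independent. Each 2-sided exact permutation test gave p = 0.1, the smallest possible with 3 against 3 (0.133 after adjustment over 4 ratios). Pdyn at 1.75 to 3.05% in WT and 2.93 to 3.44% in KI overlapped (exact permutation p = 0.3, adjusted 0.3).

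**Figure D4:**
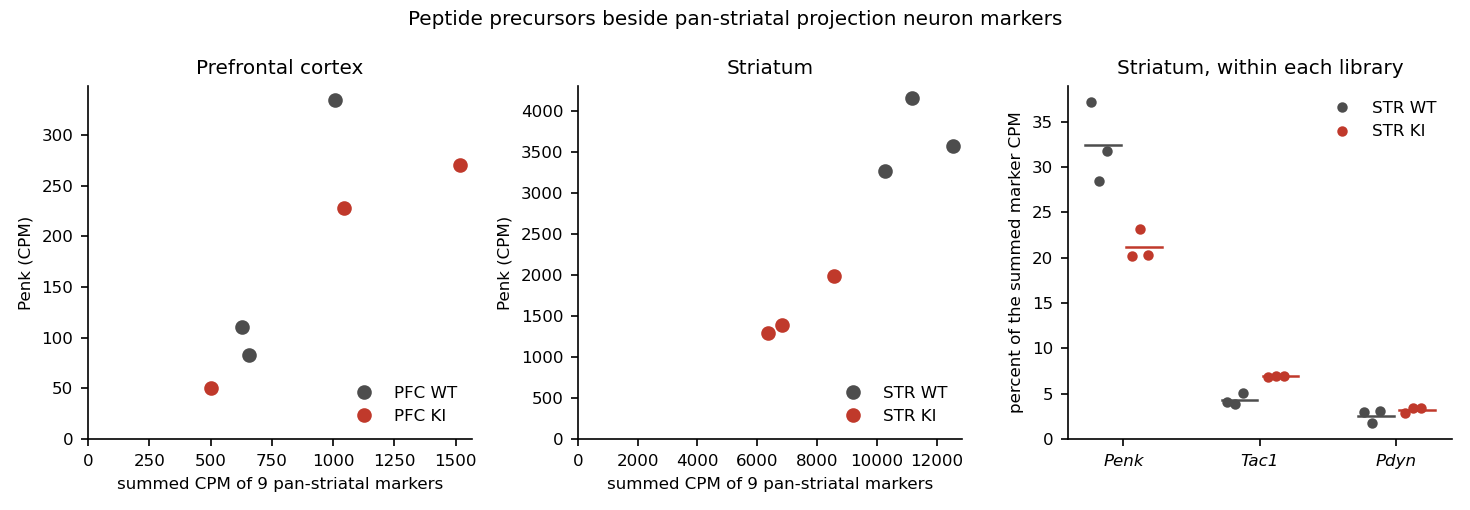
Left and middle, Penk in CPM against the summed CPM of 9 pan-striatal markers in the PFC and STR libraries (points, WT grey, KI red). Right, Penk, Tac1 and Pdyn as a percentage of that sum in each STR library, with group means as lines. Penk is 28.4 to 37.2% in WT and 20.2 to 23.2% in KI, and Tac1 is 3.87 to 5.03% in WT and 6.83 to 7.01% in KI. The sum itself is lower in the KI libraries.

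In prefrontal cortex, Penk varied widely from library to library. Penk was at 110, 83.0 and 334 CPM in WT and at 228, 271 and 50.2 CPM in KI prefrontal libraries, and the summed pan-striatal markers of the same libraries were at 628, 656 and 1008 CPM in WT and at 1046, 1517 and 502 CPM in KI. The 3 libraries with the highest Penk were the 3 with the highest marker sum. Among these 3 the order differed, since the highest Penk (334 CPM) went with the lowest sum (1008 CPM). Penk was 10.0 to 33.1% of the sum over the prefrontal libraries, and a part of striatal tissue in its level was not tested. The genotypes overlapped fully (log2 0.06, 95% interval -0.95 to 1.07). Tac1 had the same 3 libraries on top, at 85.1 CPM in WT and 57.4 and 85.7 CPM in KI against 18.1 to 28.5 CPM in the others. Without the WT library that held olfactory bulb markers, the Penk log2 fold change in prefrontal cortex was 0.93, on 2 WT libraries. The difference of the KI effect on Penk between striatum and prefrontal cortex was -1.30 on the log2 scale (95% interval -2.73 to 0.13) in the main test, which does not pair same-numbered libraries. It was -1.31 (interval -2.95 to 0.33) with the replicate block, which called 0 members. The edgeR test of such differences called 0 of 10 members between any 2 regions, beside 0.0119% of all genes for striatum against cerebellum, 0% for striatum against prefrontal cortex and 0.0178% for prefrontal cortex against cerebellum. DESeq2 called 0 members as well, beside 0.238, 0.0653 and 0.196% of all genes in the same order.

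Npy, the precursor of neuropeptide Y, had lower levels in every KI than in every WT library of both forebrain regions. It was at 116, 101 and 114 CPM in WT and at 72.9, 84.0 and 92.9 CPM in KI striatum, and at 186, 189 and 179 CPM in WT and 118, 167 and 126 CPM in KI prefrontal cortex. The groups overlapped in neither region, beside 8.46% of all genes lower without overlap in the striatum and 4.32% in prefrontal cortex. The log2 fold change was -0.40 in the striatum (SE 0.226, edgeR adjusted p = 0.695) and -0.43 in prefrontal cortex (SE 0.224, edgeR adjusted p = 0.893), and the exact permutation p was 0.1 in each, the smallest possible. The same-numbered libraries of these regions may come from the same animals, so the 2 results cannot be taken as independent. In the cerebellum Npy was at 17.7, 13.4 and 7.60 CPM in WT and at 19.4, 25.4, 17.2 and 12.4 CPM in KI, with overlap (log2 0.52, SE 0.235, edgeR adjusted p = 0.469). The KI effect on Npy was lower than in the cerebellum by 0.92 in the striatum and by 0.95 in prefrontal cortex on the log2 scale (edgeR adjusted p = 0.543 and 0.624, both unadjusted values below 0.05), and these 2 contrasts share the cerebellar libraries. Among 10 interneuron markers of striatum and cortex none was called, with medians of -0.25 in either region. Sst, the other peptide of these interneurons, was at 112, 119 and 186 CPM in WT and 105 to 119 CPM in KI striatum (log2 -0.33), and at 159 to 215 CPM in WT and 104 to 185 CPM in KI prefrontal cortex (log2 -0.35), both with overlap.

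In the cerebellum, where Tac1, Sst and Pdyn are close to the limit of detection, the higher KI means of Tac1 and Sst came from 1 library. Tac1 was at 0.771, 0.459 and 0.647 CPM in WT and at 0.732, 8.15, 0.896 and 0.665 CPM in KI, and Sst was at 2.06, 0.655 and 0.566 CPM in WT and at 1.29, 11.0, 2.91 and 0.725 CPM in KI. The same library, the second KI replicate, held 101 counts of Vip, another interneuron peptide, where the other 6 held 2 to 5. Without it, the Sst log2 fold change went from 1.83 (SE 0.770, adjusted p = 0.422) to 0.56, that of Tac1 from 2.06 (adjusted p = 0.611) to 0.29 and that of Npy from 0.52 to 0.33. Penk, the only member of the precursors with a high cerebellar level, was at 150 to 181 CPM in WT and 114 to 174 CPM in KI (log2 -0.23, 95% interval -1.17 to 0.72). Cell type markers of the cerebellum differed between the same groups. Microglia markers summed to 94.2 to 96.1 CPM in WT and 137 to 200.6 CPM in KI, with 4 of 6 called higher. Purkinje cell markers summed to 5921 to 6362 CPM in WT and 3716 to 5266 CPM in KI, with 1 of 6 (Pcp2) called lower. Of all tested genes, 0.831% were called in this comparison in either direction. The part of these cell types in the cerebellar values was not tested.

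None of the receptors was called. Oprl1 had the narrowest intervals, with log2 fold changes of 0.01 in the striatum (95% interval -0.44 to 0.46), -0.05 in prefrontal cortex (-0.49 to 0.40) and 0.32 in the cerebellum (-0.12 to 0.76). Oprd1, the receptor for enkephalins, was at 8.01, 17.3 and 13.1 CPM in WT and at 5.68, 11.9 and 6.68 CPM in KI striatum, and at 6.51, 13.0 and 13.6 CPM in WT and at 3.21, 9.97 and 5.81 CPM in KI prefrontal cortex. The groups overlapped in both regions (log2 -0.66 and -0.81, adjusted p = 0.716 and 0.857). Oprk1, the dynorphin receptor, was at 26.1 to 46.5 CPM in WT and 18.7 to 29.8 CPM in KI striatum (log2 -0.47, 95% interval -1.37 to 0.44). Oprm1 had 21 to 36 counts in every striatal library (log2 0.14, interval -0.77 to 1.06) and 1 to 11 counts in every cerebellar one (log2 1.03, SE 0.568, 95% interval -0.17 to 2.23, adjusted p = 0.589). Pnoc, with 5 to 81 counts in the striatal libraries, had a log2 fold change of 0.73 there (SE 0.685). Oprm1 shares 96 exon bases with the antisense gene Ipcef1, so its low counts could include reads of that gene.

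Genes around these members gave a similar picture in the KI comparison. No gene of 4 further lists passed the adjusted threshold in any region: receptors for tachykinins, neuropeptide Y and somatostatin (10 tested), other peptide precursors (14), enzymes that cut or degrade peptides (12) and signalling partners of opioid receptors (15). In the striatum the lowest p among signalling partners belonged to Rgs4, which speeds the shut-off of inhibitory G proteins (log2 -0.62, adjusted p = 0.240), and to Adcy5, and among the receptors to Tacr1, the substance P receptor (log2 -0.79, adjusted p = 0.751). In the cerebellum Tacr3, the neurokinin B receptor, had 2 to 25 counts in KI and 0 to 1 in WT libraries (adjusted p = 0.187), and Pcsk1n, an inhibitor of a precursor-cutting protease, had a log2 fold change of 0.36 (adjusted p = 0.180). Scg5, a chaperone of the protease Pcsk2, was at 0.34 in the striatum and 0.42 in prefrontal cortex (adjusted p = 0.517 and 0.631). Between WT regions the same lists varied widely. Against prefrontal cortex, the striatum was higher for Tacr1 (log2 3.03, adjusted p = 3.94e-05) and for Mme, a protease that degrades enkephalins (log2 3.39, adjusted p = 5.24e-10), and lower for Cck (-4.06), Vip (-5.06) and Pcsk1 (-1.43).

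Across all 19 libraries, the genes whose log2 CPM followed each member most closely were found among 14870 genes with a mean of at least 1 CPM. The values describe mainly the differences between regions, which all points share. Penk was closest to Ppp1r1b (Pearson r = 0.986), the phosphoprotein DARPP-32 of striatal projection neurons, followed by Klhl13 and Dhx32. Tac1 was closest to Asic4 (r = 0.996), Tacr1 and Gpr149, and Pdyn to Wnt2 (r = 0.990), Otulinl and Bcl11b. Npy followed Gpr26 (r = 0.987) and Sst followed Nrgn (r = 0.988). Among the receptors, the first genes were Lmo7 for Oprk1 (r = 0.981), Nin for Oprd1 (r = 0.978), Cmip for Oprl1 (r = 0.985) and Fam102a for Oprm1 (r = 0.938). Pnoc had the least close partner, Bin1 (r = 0.921).

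Because TBP binds the TATA box, promoter windows were read from RefSeq (GRCm38.p6), from 250 bases before to 50 bases after each annotated start. Windows were found for 7 members, 12 in all, and not for Penk, Pnoc and Oprk1. The letters TATAAA, on either strand, were in 13.6% of 32851 windows and in 1 of the 12 member windows, that of Oprl1. The GC box GGGCGG was in 35.7% of windows and in 3 of the 12 member windows, those of Npy, Oprd1 and Tac1. TGACGT, the core of the cyclic AMP response element, was in 7.51% of windows and in 1 of the 12, that of Sst. There the overlapping matches on both strands form the full palindrome at position -48 from the start. The matches are shown in capitals, in the direction of transcription.
Oprl1, chr2:181714864-181714893, plus strand: tccatttttgtgTTTATAgatgtctccact
Sst, chr16:23890875-23890904, minus strand: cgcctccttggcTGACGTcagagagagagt
The Oprl1 match is on the opposite strand (TTTATA), at position -140 from the start. Neither gene was called between KI and WT in any region.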

How the data were processed

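Libraries were made from total RNA with SMART-Seq v4 and Nextera XT kits, which do not mark the strand. The authors' deposited files hold raw counts per gene, and a normalized table used here only in an alternative, whose columns are a normalized count signal from the authors. The submitters' processing notes list bcl2fastq 2.17.1.14, STAR 2.5.2b, HTSeq, DESeq2 1.10.1 and the build GRCm38.p3; use of strand in counting is not given in the sources used here. Groups were taken from the labels. The members and all gene lists were chosen with earlier results of these data known.

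Counts of all 19 libraries were fitted in 6 groups of region and genotype with edgeR 4.0.16 (R 4.3.3): TMM scaling, filterByExpr (16841 of 41128 genes), quasi-likelihood tests with 13 residual degrees of freedom, and Benjamini-Hochberg adjustment over all tested genes with a threshold of 0.05. DESeq2 1.42.0 and limma 3.58.1 gave alternatives. Each SE is the log2 fold change divided by the square root of the F statistic. RPKM used union exon lengths from GENCODE M21, which 40254 of the genes matched. These lengths understate genes with long, rarely used exons. The study's methods give 3 to 4 mice per genotype. The labels do not name the animal of a library, so p-values measure the spread between these samples. Named genes were the 10 members, of each list the genes past the threshold (at most 5) or else at most 2 with the smallest p, Tbp, and the genes most like each member.

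Replicate numbers were checked for pairing. Deviations of same-numbered STR and PFC libraries from their group means correlated in all 6 pairs (r = 0.233 to 0.368). The sex inferred from counts was also the same in 6 of 6 pairs, and shared sex may add to these correlations. The numbers were therefore treated as possible pairs of 1 animal, which the labels do not state. The correlations of CB with STR or PFC (-0.10 to 0.14) and of KI with WT in a region (-0.25 to 0.17) lay on both sides of 0. On simulated counts, edgeR recovered 85% of 200 genes changed by 1 on the log2 scale in the STR comparison over 16659 genes, with 8 false calls of 178. DESeq2 recovered 90% of them, with 30 false calls of 210, and made 6 calls in the unchanged PFC comparison, where edgeR made 0. The DESeq2 fit to the striatal libraries alone was not simulated. The changed genes were drawn only from those with higher mean counts, and each gene was simulated independently. The rates therefore do not cover low-count members such as Oprm1 and Pnoc, or dissection differences shared by many genes.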

Additional observations from a re-analysis of the deposited data

Results flagged for a closer look

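Tac1 in the KI cerebellum had 1 library far from the others. The highest of 4 libraries was at 8.15 CPM and the other 3 at 0.665 to 0.896 CPM, so the gap to the next library was 0.969 of the whole range, above Dixon's 95% critical value for 4 samples. The 10 members were tested in this group, and chance flags about 1 in 20. The same library was also the highest of the 7 for Sst, at 11.0 CPM, and for Npy, at 25.4 CPM. The cause was not tested.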

How the results depend on the processing

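The counts of called members held under nearly all alternatives. The number called in KI against WT striatum was 0 in every setting except 1 with DESeq2, where only the 6 striatal libraries were fitted and Penk was called (1 member), and without 1 library the number called between WT striatum and WT prefrontal cortex ranged from 4 to 7. Over all genes, the calls in KI against WT were 140 in CB, 98 in STR and 18 in PFC by edgeR, 336, 214 and 52 by DESeq2, 172, 46 and 0 by edgeR with each region alone, and 489, 274 and 33 by DESeq2 with each region alone. The replicate block within regions changed no member's call, gave 72 calls in STR and 9 in PFC over all genes, and turned Pdyn in CB to 0.053 and Oprk1 in CB to -0.010 on the log2 scale. The replicate block across regions gave Penk in WT PFC against CB as -0.11 and Oprm1 in WT STR against PFC as 1.19 (adjusted p = 0.0466). The replicate block on the STR and PFC libraries alone, chosen after seeing the data, called 0 members for the difference of the KI effect between these regions. A covariate for sex inferred from counts turned Tac1 in STR to -0.15, Oprl1 in STR to -0.044 and Penk in PFC to -0.012. Leaving out the 4 cerebellar and prefrontal libraries named above, chosen after seeing the data, turned Pnoc in CB to 0.055 and Pnoc in WT STR against CB to 0.060. It also turned Penk in WT PFC against CB to -0.74 and gave Oprm1 in WT STR against PFC as 1.36 (adjusted p = 0.0483). The causes were not tested. 

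Without 1 library, log2 fold changes that changed sign ranged in KI against WT from -0.59 to 0.18 for Pdyn, -0.55 to 0.19 for Pnoc and -0.037 to 0.47 for Oprk1 in CB; from -0.093 to 0.14 for Tac1, -0.41 to 1.83 for Pnoc, -0.027 to 0.38 for Oprm1 and -0.23 to 0.27 for Oprl1 in STR; and from -0.34 to 0.93 for Penk, -0.19 to 1.22 for Tac1, -0.82 to 0.19 for Oprk1 and -0.14 to 0.037 for Oprl1 in PFC. Between WT regions they were -1.46 to 0.075 for Pnoc in STR against CB, -0.055 to 0.48 for Oprd1 in STR against PFC and -0.79 to 0.41 for Penk in PFC against CB. With 3 or 4 libraries a group, a change cannot be told from 0 unless it exceeds the distance from estimate to interval end. The adjusted threshold asks for larger changes still.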
